A study of Mus musculus with 8 samples.

Results

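Poly(A) sites (PASs) that the deposited tables list with the type single exon, meaning that the gene they end was annotated with 1 exon and no intron, were followed through arsenite stress and recovery in NIH3T3 cells, an established line of mouse fibroblasts. Members were all PASs with that type in the tables of AS, RC4 and RC8, each of which sets 1 treated library beside NT. There were 1024 pairs of a gene and a single-exon PAS at 1015 positions in 842 genes, among 21565 PASs and 10690 genes in all. The table of AS held 947 of them in 815 genes, that of RC4 933 in 794 and that of RC8 933 in 799, and 858 stood in all 3 tables. NT cells were not treated, AS cells were kept in 250 μM sodium arsenite for 1 h, and RC4 and RC8 cells were given the same treatment and then 4 h or 8 h in medium without arsenite. All 4 conditions were the same cell line with no change of genotype, and each had 1 QuantSeq FWD library. There was thus no replicate and no test, and a change is given with a counting interval of the reads only.

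A PAS is where the cleavage machinery cuts a nascent transcript and poly(A) polymerase adds a tail. In most mammalian genes the cut is directed by a hexamer, AAUAAA or AUUAAA in the RNA, a short way upstream. Genes without introns include those for many regulators made quickly after a stimulus, such as Jun family members, and for replication-dependent histones, whose main mRNAs end in a stem-loop without a tail. Processed pseudogenes, copies of mRNAs put back into the genome by reverse transcription, also lack introns and often carry the remnant of the old tail as a run of A in the DNA.

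QuantSeq FWD primes complementary DNA with oligo(dT) and reads toward the tail, so a read count stands for transcripts and does not need the gene's length. Reads on genes came to 22441452 to 22996421 per library. Reads at a PAS were the deposited fraction of the gene's reads times those reads, and are given per 1000000 reads on the genes of the table (RPM). FWD reads lie near a PAS without always reaching it. The fraction was estimated by MAAPER, the method of the paper, from modelled distances between reads and PASs. All 7 fibroblast markers looked up, such as Col1a1, Vim and S100a4, had rows in the tables, and none of the 4 epithelial, 3 leukocyte or 3 endothelial markers did. None of these markers had a single-exon PAS.

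The 30 bases ending at the PAS show what the members are, and 13 are printed to set transcripts made from their own genes beside pseudogenes and a host gene's end. They are from the mm9 build on the transcript's strand, 5′ to 3′, at the member PAS with the most reads in NT, and capitals mark AATAAA or ATTAAA and runs of 6 or more A.
Neat1: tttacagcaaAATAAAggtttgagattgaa
Rhob: aatATTAAAagactatgatcatgacattta
Hexim1: attgcATTAAAtgtctattttgaaactgtt
Snord14e: aatAATAAAactatttaaattggcaccata
Cebpb: ttggatttatgcgagattttgtttttgtgt
H2afx: gtcggcaagaaggcctcgcaggcctctcag
Hist1h1c: ccaaaatgttaaattggctatctgttgaaa
Jund: cggggctagccctctcccatccccctccct
Rplp2-ps1: gaagaaggaggagtccgaggagtcggatga
Hspd1-ps3: aaaattttgtttaaagttAAAAAAAAAAAA
Hspe1-ps3: accagatgatgcctaaactgacAAAAAAAA
Rpsa-ps10: ctgtgcaggtgcctgagcaaagggAAAAAA
Tpt1-ps3: aAATAAAgtgcatttaaatccAAAAAAAAA

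The windows of Neat1 (chr19:5842307-5842336), Rhob (chr12:8504473-8504502), Rplp2-ps1 (chr12:76731986-76732015), Rpsa-ps10 (chr3:149735585-149735614) and Tpt1-ps3 (chr6:99827605-99827634) lie on the minus strand. Those of Hexim1 (chr11:102981015-102981044), Snord14e (chr9:40613256-40613285), Cebpb (chr2:167515974-167516003), H2afx (chr9:44143238-44143267), Hist1h1c (chr13:23832169-23832198), Jund (chr8:73224562-73224591), Hspd1-ps3 (chr11:41314396-41314425) and Hspe1-ps3 (chr5:24897802-24897831) lie on the plus strand. Neat1, Rhob, Hexim1, Snord14e and Tpt1-ps3 showed a hexamer in these 30 bases, and Hspd1-ps3 held one farther upstream, within 40 nt. In the last 4 pseudogenes the last 6 to 12 bases up to and including the PAS were all A in the genome.

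The label single exon was borne out for most members that could be looked up. Of 842 genes, 650 had an entry in the GENCODE vM1 annotation, and 562 of these (86.5%, 95% Wilson interval 83.6% to 88.9%) had a transcript of 1 exon. In 530 genes (81.5%) no spliced transcript was annotated. Among 9001 other genes of the tables, 238 (2.64%) had a transcript of 1 exon and 190 had no spliced one, so the type did not hold every intronless gene. Ier2, Ier5, Sox4, Foxc1, Foxc2, Rap2b, Fzd1, Fzd2 and Purb, each with 1 annotated exon, were listed with 3′-most-exon PASs only.

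Few members were the well-known intronless coding genes. By RefSeq biotype, or GENCODE vM1 where RefSeq had no entry, 636 of the 1024 PASs (62.1%) belonged to 541 pseudogenes, 139 (13.6%) to 111 small RNA genes such as snoRNAs, microRNAs and Y RNAs, and 65 (6.35%) to 47 long noncoding RNA genes. A further 46 PASs (4.49%) belonged to 33 genes coding for proteins in RefSeq. Another 58 PASs in 48 genes were protein-coding in GENCODE vM1 only, and 80 PASs in 62 genes had no entry in either. The type is therefore described by these classes below.

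Single-exon PASs and PASs of the 3′-most exon held a hexamer about equally often within 40 nt upstream. It was AATAAA or ATTAAA in 515 of 1024 members (50.3%, 95% Wilson interval 47.2% to 53.3%), in 53.0% of 18269 3′-most-exon PASs and in 53.1% of 2135 intronic PASs. In windows of the same length 200 nt farther upstream the share was 3.52% in members and 3.69% in 3′-most-exon PASs. Within 30 nt the shares parted, at 32.7% in members and 48.7% in 3′-most-exon PASs. Pseudogenes went from 50.9% within 40 nt to 27.4% within 30 nt, while long noncoding RNAs went from 60.0% to 52.3%.

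Runs of A were more frequent at members. An A tract, defined as 8 consecutive A between 15 nt before and 20 nt after the PAS, or, within 20 nt after it, 6 consecutive A or 7 A among 10 bases, lay at 474 members (46.3%, interval 43.3% to 49.4%). It lay at 8.35% of 3′-most-exon PASs and 27.6% of intronic PASs. In members 200 nt farther upstream the share was 7.52%. It was 63.1% in pseudogenes, 55.2% in genes that code in GENCODE vM1 only, 14.4% in small RNAs, 10.8% in long noncoding RNAs and 6.52% in RefSeq coding genes. A run of 6 or more A up to and including the PAS itself was found in 318 of 636 pseudogene PASs, in 3 of 46 PASs of RefSeq coding genes and in 3.79% of 3′-most-exon PASs. Oligo(dT) can prime on such runs inside an RNA. The paper states that PolyA_DB sites were mapped by 3′READS, which does not depend on oligo(dT). It holds that internal priming therefore leaves the PASs predicted by MAAPER unaffected. The part of such priming in the read counts used here was not tested.

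**Figure D1:**
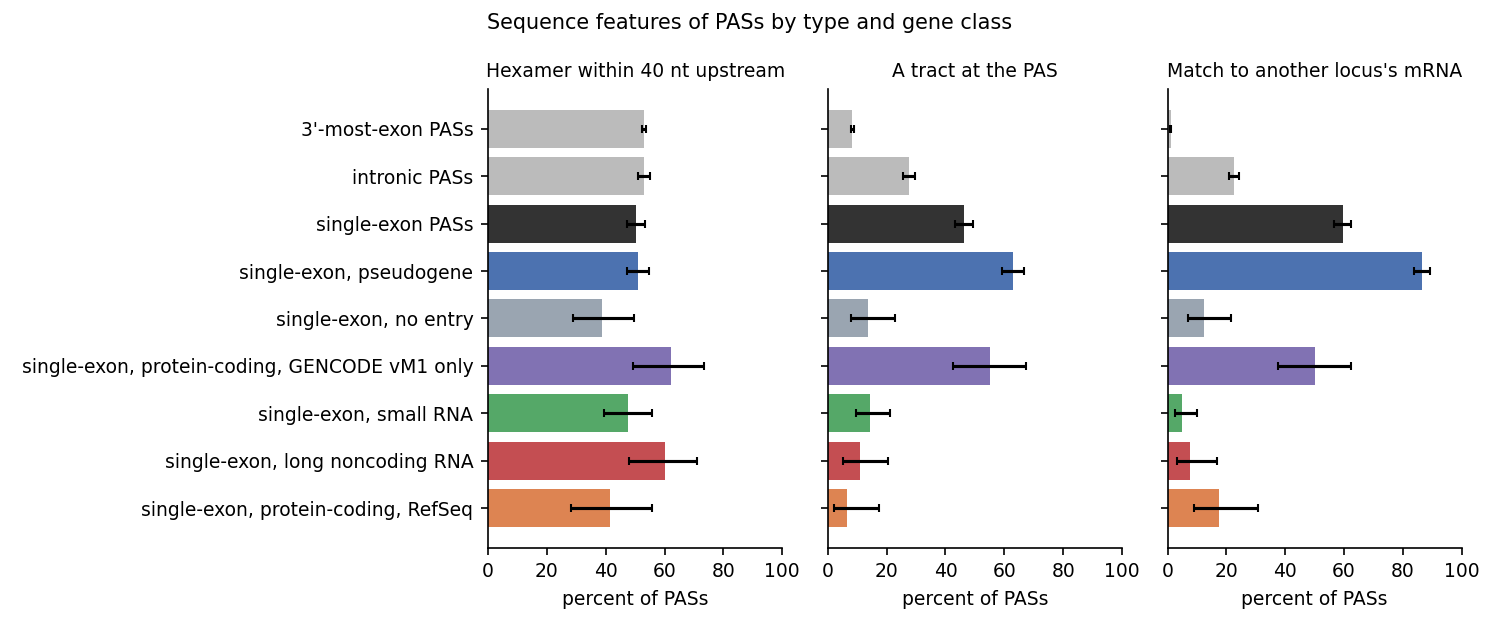
Share of PASs, in percent, with AATAAA or ATTAAA within 40 nt upstream, with an A tract at the PAS, and with at least 160 of the 200 bases before the PAS matching a coding mRNA of another locus, for 3′-most-exon, intronic and single-exon PASs and for single-exon PASs by gene class. Bars are shares and error bars 95% Wilson intervals. Hexamer shares of the classes run from 38.8% in genes with no entry to 62.1% in genes that code in GENCODE vM1 only, and pseudogenes reach 63.1% for A tracts and 86.6% for matches to another mRNA.

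Most members resembled an mRNA made elsewhere. When the 200 bases ending at the PAS were aligned to coding transcripts of other loci, at least 160 bases matched for 610 members (59.6%), against 1.07% of 3′-most-exon PASs. At least 190 matched for 274 members (26.8%), against 0.427%. Elsewhere in the genome, 306 members (29.9%) had a copy with at least 190 matching bases, against 3.57% of 3′-most-exon PASs. For Rpl3-ps1, Rps6-ps4 and Gm15500, copies of the ribosomal protein mRNAs Rpl3, Rps6 and Rpl5, all 200 bases matched (100%). Over an identical stretch the reads of a member cannot be told apart from those of its parent or another copy, and how reads with several places in the genome were counted is not given in the sources used here.

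Most small RNA members lay close to a PAS listed for another gene. Of their 139 PASs, 86 (61.9%) lay within 100 nt of a PAS listed for another gene on the same strand, and 52 (37.4%) were the same PAS. Among 80 members with no entry these were 47 and 32, and among 46 PASs of RefSeq coding genes 2 and 1. Over all members 236 (23.0%) had such a neighbour, against 2.87% of 3′-most-exon PASs. Of the 216 members with a neighbouring gene in the table of AS, 90 had a gene read number in NT within 10% of that neighbour's. In 89 small RNA PASs (64.0%) the PAS lay inside or within 1 kb after another coding gene on the same strand. Of 74 small RNA PASs with an annotated gene end, 14 lay within 100 nt of it, and the median lay 1708 nt beyond it. Snord14e, which encodes a snoRNA in an intron of Hspa8, had 24276 reads in NT at a PAS 42 nt from the PAS of Hspa8, which had 24379 reads. Gm26377 shared its PAS with Eef1a1, the translation elongation factor, and had 96031 reads beside 106334. The same reads can therefore stand under both names.

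The members held a large share of all reads. In NT they had 151545 RPM, or 15.2% of reads on genes. They had 163120, 162133 and 148973 RPM in AS, RC4 and RC8, which is 16.3%, 16.2% and 14.9%. The Poisson intervals were narrow, 151384 to 151705 RPM in NT and 162953 to 163288 RPM in AS, and cover counting error only, since amplified copies of 1 molecule were not told apart. AS and RC4 were above NT beyond this error and RC8 was below it.

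Nearly all of this lay in genes without a 3′-most-exon PAS. Their 925 members in the AS table had 150680 RPM in NT and 162257 in AS. The 910 of the RC4 table had 161460 RPM in RC4 and the 911 of the RC8 table had 148226 RPM in RC8. The genes with both types had 22, 23 and 22 members, with 864 RPM in NT and 864, 673 and 747 in AS, RC4 and RC8. Only the first group held more reads in AS than in NT.

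Pseudogenes held 73.9% of single-exon reads in NT, with 111918 RPM, and 122372, 118649 and 109168 RPM in AS, RC4 and RC8. RefSeq coding genes held 1.30%, with 1975 RPM in NT, then 2129, 1409 and 1882 in AS, RC4 and RC8. Long noncoding RNAs had 4271 RPM in NT, then 3635, 4209 and 3619 in AS, RC4 and RC8. Small RNAs had 9242 RPM in NT, then 8887, 11233 and 8412 in AS, RC4 and RC8. The high value of small RNAs in RC4 lay in Snord14e, without which, as computed after its value was seen, they had 8184 RPM in NT and 7499 in RC4.

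**Figure D2:**
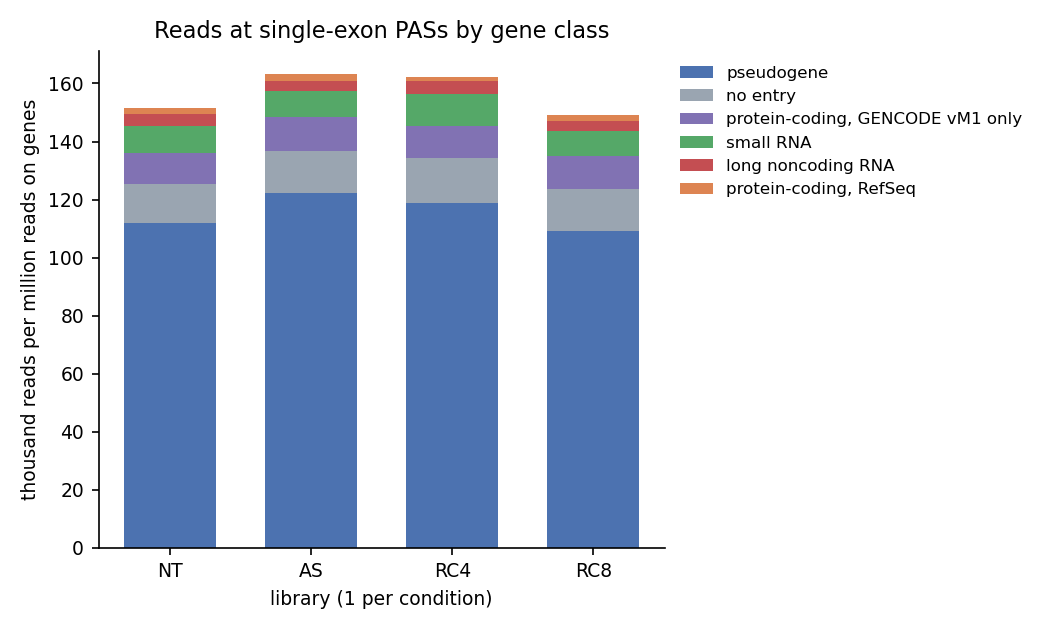
Reads at single-exon PASs in RPM, on an axis in units of 1000 RPM, stacked by gene class, in the 1 library of each condition. Pseudogenes fill most of each bar, and the bars of AS and RC4 reach 163120 and 162133 RPM against 151545 in NT.

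Copies of ribosomal protein mRNAs made up about the same share in every library. Among genes of the AS comparison without a RefSeq coding entry, 199 matched such an mRNA in at least 160 of 200 bases, and had 75023 RPM in NT, 49.5% of single-exon reads, and 83251 RPM in AS, 51.0%. Such genes had 81723 RPM in RC4 and 73712 RPM in RC8. The log2 change of their sum was 0.15, 0.12 and -0.02 in AS, RC4 and RC8. The 5 genes with the most reads included Rplp2-ps1, a copy of the mRNA of ribosomal stalk protein P2, with 6114 RPM in NT, then 7172, 7204 and 6892 in AS, RC4 and RC8. Rplp2 itself was listed at 485 RPM in NT. The PAS of Rplp2-ps1 lay 81 nt from one listed for Wdr89, whose gene had 6214 RPM in NT. Gm9701, which matched Rps23 in 92.0% of the window, had 5085 RPM in NT, while Rps23 had 24.6. The other 3 were Gm26377 at the PAS of Eef1a1, ENSMUSG00000090378, which matched the mitochondrial mRNA mt-Nd3 in 88.5%, and ENSMUSG00000060214, which matched the mRNA of histone variant H2afz in 91.5%. Of 226 genes in the AS table with at least 190 matching bases and a parent in the tables, 62 (27.4%) had more reads in NT than the parent gene and 18 had more than 5 times as many.

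In AS, 22 of 947 members (2.32%) were at least 2-fold higher than in NT and 43 (4.54%) at least 2-fold lower. All 947 had at least 50 reads in 1 of the 2 libraries. Over all PASs with that many reads the shares were 1.05% higher and 6.28% lower. Without members within 100 nt of another gene's PAS, 19 of 730 were higher and 21 lower, an alternative chosen after seeing the data. The median log2 change was 0.04 in members, -0.07 in all PASs and -0.09 in 3′-most-exon PASs. By class it was 0.08 in pseudogenes, 0.09 in RefSeq coding genes, -0.12 in long noncoding RNAs and -0.20 in small RNAs, so the last 2 classes lay on the other side of 0.

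In RC4, 34 of 932 members with enough reads (3.65%) were at least 2-fold higher and 80 (8.58%) at least 2-fold lower, beside 5.93% and 17.1% of all PASs. The median log2 change was -0.08 in members and -0.28 in all PASs. Since the median over all genes was -0.30 on this scale, the members' median was 0.23 above that of all genes. Scaled on the median gene, 62 members were higher and 41 lower, so the order of the counts turned with the scaling. RefSeq coding genes were lowest, with a median of -0.44 and 10 of 33 members (30.3%) at least 2-fold lower, while pseudogenes had a median of -0.02 and 30 of 604 (4.97%).

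In RC8, 26 of 930 members (2.80%) were at least 2-fold higher and 69 (7.42%) at least 2-fold lower, beside 4.87% and 7.45% of all PASs. The median log2 change was -0.11 in members and -0.01 in all PASs. Small RNAs were lowest at -0.21, with 16 of 129 at least 2-fold lower, and RefSeq coding genes had a median of 0.02 with 0 of 36 lower. All 3 comparisons use the same NT library.

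**Figure D3:**
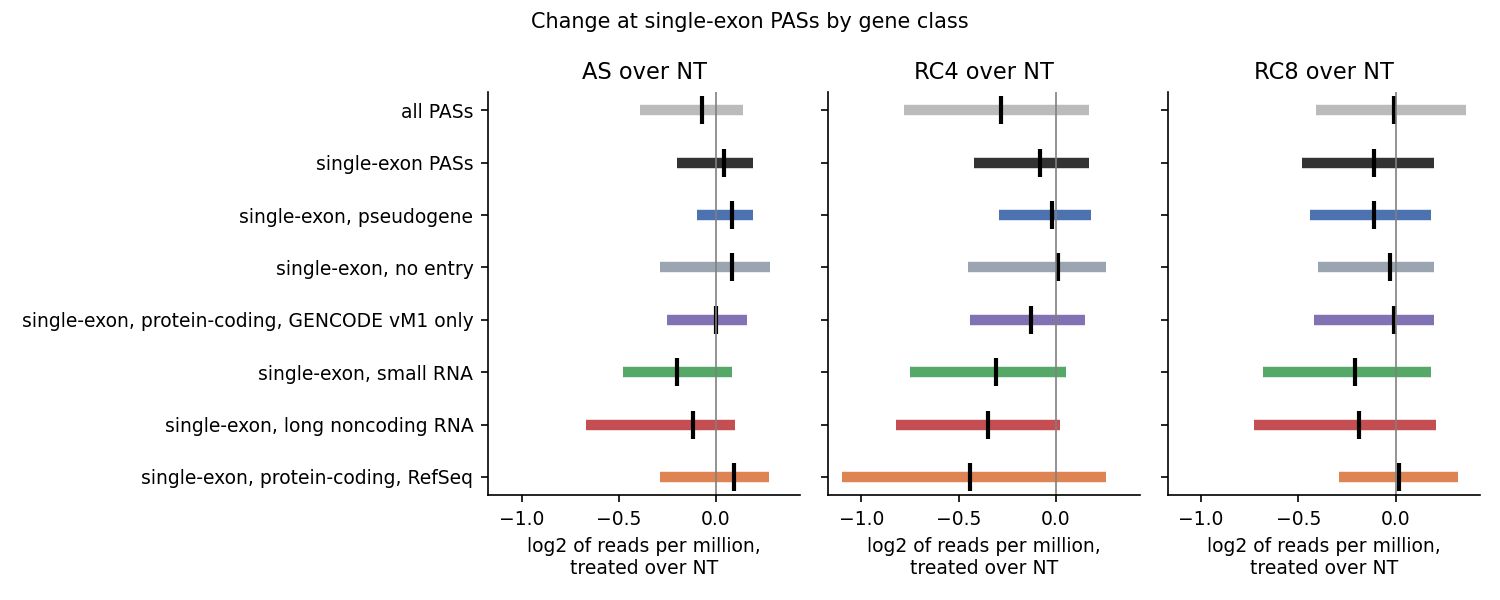
Log2 of RPM in AS, RC4 and RC8 over NT at PASs with at least 50 reads in 1 of the 2 libraries, for all PASs, all single-exon PASs and single-exon PASs by gene class. Ticks are medians and bars run from the first to the third quartile over PASs, with no error between libraries. RefSeq coding genes lie near 0.09 in AS, reach -0.44 in RC4 and lie at 0.02 in RC8.

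Of 6 nuclear long noncoding RNAs listed, 3 had rows and Neat1 and Malat1 had single-exon PASs. Neat1, a long noncoding RNA of paraspeckles, had 276 RPM in NT, then 89.6, 628 and 475 in AS, RC4 and RC8 over its single-exon PASs. It was lowest in AS and highest in RC4. The log2 change was -1.62 in AS (95% binomial interval -1.69 to -1.55), and in recovery 1.18 (1.14 to 1.23) at RC4 and 0.78 (0.74 to 0.83) at RC8. The PAS printed above carried 248 of the 276 RPM in NT, 80.3 in AS and 596 in RC4. In RC8 the table listed a PAS 26 nt from it in its place, with 438 RPM. These are the ends of the short Neat1 transcript, upstream of the annotated gene end, so most of the reads given stand for that transcript only. Malat1, a neighbour of Neat1 that lies in nuclear speckles, had 819 RPM in NT, then 551, 680 and 497 in AS, RC4 and RC8, and stayed within 2-fold. Most of its reads, 726 RPM in NT, stood at a PAS with an A tract well inside the annotated gene. Dnm3os, the host transcript of miR-199a-2 and miR-214, had 24.5 RPM in NT, then 6.42, 15 and 16.6 in AS, RC4 and RC8. Its main PAS was also listed for Mir214, with 17.4 RPM in NT and 2.41 in AS.

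Among coding genes with introns absent, Pcbp1, an RNA-binding protein of poly(C) stretches whose gene arose by retrotransposition, had the most reads. It had 1069 RPM in NT, then 1147, 702 and 939 in AS, RC4 and RC8. No value lay 2-fold from NT. Cd248, a membrane glycoprotein of stromal cells also called endosialin, had 34.5 RPM in NT, then 30.8, 8.65 and 25.5 in AS, RC4 and RC8. Its log2 change in RC4 was -2.0 (-2.23 to -1.77), among the 5 lowest. Chst14, a dermatan sulfotransferase, was likewise low in RC4 alone, with 22.5 RPM in NT, then 17.6 in AS and 6.73 in RC4, with 461 reads in RC8 against 508 in NT. Tcim, a regulator of Wnt signalling, went the other way, with 6.69 RPM in NT, then 8.51, 28.1 and 5.91 in AS, RC4 and RC8. Its log2 change in RC4 was 2.07 (1.81 to 2.33). Zfp469, a zinc finger protein, had 13.4 RPM in NT, 3.88 in AS and 16 in both recoveries. The lowest value was in AS for Zfp469 and in RC4 for Cd248 and Chst14.

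Of the AP-1, C/EBP and immediate early genes, 8 of 9 had rows in the tables and 4 had a single-exon PAS. Over their whole genes, 2 of 8 were at least 2-fold higher in AS, beside 0.622% of all genes, and both, Jun and Ier2, had 3′-most-exon PASs only. None of the 8 was at least 2-fold lower in AS, beside 3.22% of all genes. In RC4 0 of 8 were higher and 2, Cebpb and Ier5l, were lower, beside 3.69% and 13.4%, with log2 changes of the whole gene of -2.07 and -1.55. In RC8 0 of 8 were higher and 1, Cebpb, was lower, beside 2.97% and 3.53%. Among the members, Junb, an AP-1 subunit, had 18.5 RPM at its single-exon PAS in NT and 33.1 in AS. Jund, another AP-1 subunit, had 9.65 RPM in NT and 17.7 in AS in the AS table, which listed the single-exon PAS as its only one, and 5.46 RPM in NT and 5.91 in RC4 at the same PAS in the RC4 table, which also listed a 3′-most-exon PAS. Ier5l, a relative of the heat shock cofactor Ier5, had 18.5 RPM in NT, then 20.6, 6.33 and 16.5 in AS, RC4 and RC8. Foxs1, the only member among 7 listed genes of the other intronless transcription factors, had 5.36 RPM in NT, then 2.76, 6.07 and 9.83 in AS, RC4 and RC8, from 121, 62, 139 and 226 reads. Of these 7, 0 were at least 2-fold higher or lower in AS, 1 was higher and 2 were lower in RC4, and 0 were higher and 1 was lower in RC8, none of them Foxs1. The lower ones were Sox12 and Tob1 in RC4 and Tob1 in RC8. Both, and also Tob2, had 2 exons in every annotated transcript, so the name of the list does not hold for them. Neither Foxs1 nor the Jun family members reached 2-fold at a single-exon PAS summed over the gene. In the list of small GTPases 4 of 5 genes had rows and Rhob was the member, and of the frizzled receptors (3 of 5), the Pur proteins (3 of 3) and HSP70 (1 of 2) no gene had a single-exon PAS. Over the genes with rows, 0 of 4 small GTPases, 0 of 3 frizzled receptors and 0 of 3 Pur proteins were at least 2-fold higher in RC4, and 2 of the 3 frizzled receptors were at least 2-fold lower, beside 3.69% and 13.4% of all genes. Hspa1b, the inducible chaperone of the HSP70 list, had 42.3 RPM in NT, then 218, 2369 and 90.4 in AS, RC4 and RC8 at 3′-most-exon PASs.

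The histone list took symbols starting with Hist, and H1f0, H2afx, H2afz, H3f3a and H3f3b. Of its 17 genes with rows, 5 had a single-exon PAS. H2afj, a member given below, was outside this list. Over whole genes, 2 of 16 were at least 2-fold higher and 0 lower in AS, 3 of 16 higher and 4 lower in RC4, and 3 of 15 higher and 2 lower in RC8, beside the shares of all genes given above. Hist1h1c, linker histone H1.2, had 36.8 RPM in NT, then 77.9, 62.8 and 36.7 in AS, RC4 and RC8. It was highest in AS, with a log2 change of 1.08 (0.96 to 1.2). The PAS of Hist1h1c printed above had an A tract and no hexamer, and the part of priming on the tract was not tested. Hist1h1e, linker histone H1.4, had 2.35 RPM in NT, then 2.90, 5.29 and 5.65 in AS, RC4 and RC8, from 53 to 130 reads. Hist1h2al, which RefSeq gives as a transcribed pseudogene of the H2A family, had 6.38 RPM in NT, then 6.37, 13.1 and 15.7 in AS, RC4 and RC8. Hist1h1d, linker histone H1.3, had 4.96 RPM in NT and 6.37 in AS. Over all genes of the histone list with rows the median log2 change was -0.74 in RC4 and -0.29 in RC8. Hist1h1e and Hist1h2al lay on the other side of 0 from it. So did Hist1h2bc, listed with 3′-most-exon PASs only, at 1.75 in RC4 and 1.27 in RC8, and Hist1h1c in RC4, at 0.77. The member H2afx lay on the side of the median, at -1.55 and -0.61 over the whole gene. Window matches between the H1 genes (83.0% for Hist1h1e and Hist1h1d) leave room for shared reads.

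**Figure D4:**
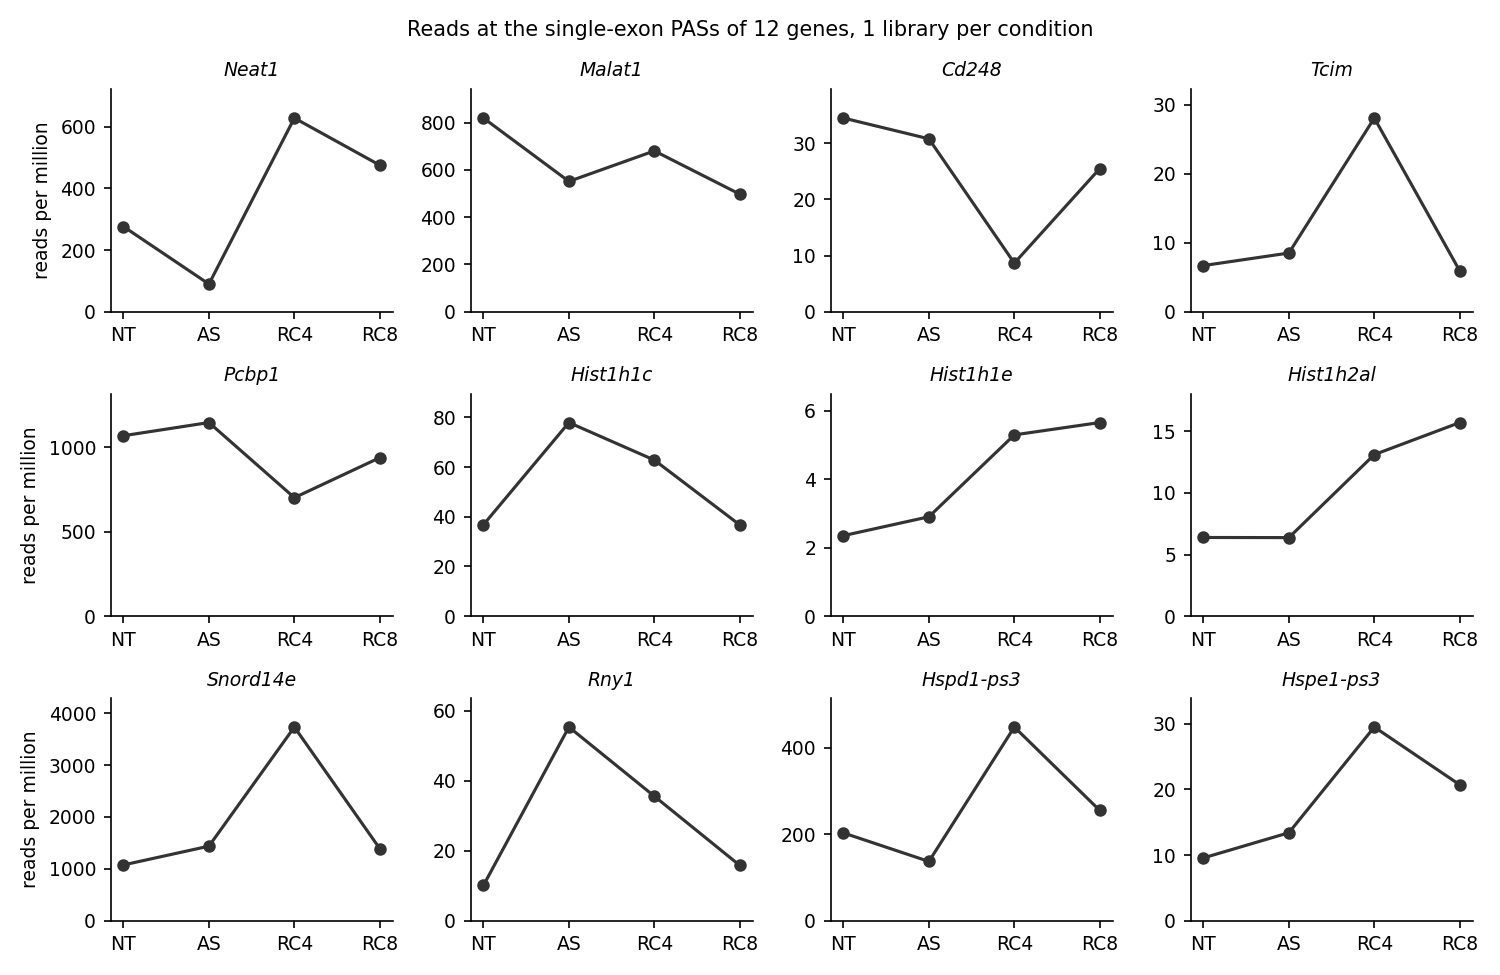
RPM at the single-exon PASs of 12 genes in NT, AS, RC4 and RC8, with 1 library and so 1 point per condition and a linear axis from 0 in each panel. Lines join the points of a gene. Neat1 is lowest in AS and highest in RC4, Cd248 is lowest in RC4, and Snord14e, Tcim, Hspd1-ps3 and Hspe1-ps3 are highest in RC4.

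Small RNA members with the largest changes were followed with their hosts. Their values are of reads at the PASs, which need not come from the small RNA itself. Rny1, the Y RNA hY1 homologue that binds Ro60, had 10.1 RPM in NT, then 55.4, 35.6 and 15.8 in AS, RC4 and RC8. It had the highest log2 change of the members in AS, at 2.46 (2.26 to 2.67), among 704 genes without a 3′-most-exon PAS and with 200 reads. No other gene had a PAS within 100 nt of that of Rny1. Mir21a, which lies within Vmp1, had 16.8 RPM in NT, then 4.68, 23.6 and 15 in AS, RC4 and RC8. ENSMUSG00000051554, which codes in GENCODE vM1 only and shared its PAS with Cmtm4, had 40.5 RPM in NT, then 11.5, 31.6 and 44.6 in AS, RC4 and RC8, beside 50.1, 22.3, 49.0 and 66.3 for Cmtm4. Gm22826 shared its PAS with Nr1h5 and had 11.4 RPM in NT and 2.54 in AS, while Nr1h5 had 15.7 and 6.19. Nr1h5 was thus lower in AS together with Gm22826, with which it can share reads.

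Members at the ends of Hspa8 and Ftl1 had close to the values of those genes. The same reads can stand under both names, so this need not be a likeness of separate transcripts. Snord14e had 1075 RPM in NT, then 1437, 3734 and 1388 in AS, RC4 and RC8, and Hspa8, the constitutive HSP70 chaperone, had 1079, 1450, 3747 and 1391. The log2 change in RC4 was 1.79 for both. Gm22133 shared a PAS with Ftl1, the ferritin light chain, and had 554 RPM in NT, then 649, 1199 and 1328 in AS, RC4 and RC8, while Ftl1 had 563, 659, 1213 and 1341. Gm22774, which matched Ftl1 in 92.0% of the window and shared a PAS with Gm15590, had 11.0 RPM in NT, then 16, 25 and 27.2 in AS, RC4 and RC8. Gm22579 had its PAS at, or 57 nt from in both recovery tables, one of Taf1d, a subunit of the polymerase I factor SL1 and host of several snoRNAs, and had 23.5 RPM in NT, then 49.1, 13.1 and 8.57 in AS, RC4 and RC8. It was highest in AS and lowest in RC8, and Taf1d had 101, 172, 90.8 and 44.9 RPM. Gm22884, inside the stress granule gene G3bp1, had 18.2 RPM in NT, then 13.6, 4.98 and 16.4 in AS, RC4 and RC8.

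Pseudogenes with the largest changes, and 3 chaperone copies chosen after their values were seen, are set beside the coding gene that they matched best. Gm12551 matched 99.0% of the window in Plin2, the lipid droplet coat protein, and had 10.9 RPM in NT, then 12.1, 52.9 and 28.3 in AS, RC4 and RC8. Plin2 had 83.3 RPM in NT, then 87.2, 340 and 214 in AS, RC4 and RC8, and the log2 changes in RC4 were 2.27 and 2.02. Gm6055, which matched the autophagy gene Map1lc3b in 88.5%, had 25.5 RPM in NT and 85.6 in RC4, and Map1lc3b had 108 and 253. Member and parent both stood higher in RC4 in these pairs. Hspd1-ps3 had 203 RPM in NT, then 137, 448 and 255 in AS, RC4 and RC8, and Hspd1, the mitochondrial chaperonin HSP60, had 1131, 826, 2528 and 1700. Hspe1-ps3 had 9.56 RPM in NT, then 13.4, 29.5 and 20.7 in AS, RC4 and RC8, and Hspe1, the cochaperonin HSP10, had 363, 383, 919 and 688. ENSMUSG00000083840 matched Hspa8 in 98.5% and had 280 RPM in NT, then 288, 823 and 238 in AS, RC4 and RC8. These 3 copies of chaperone mRNAs were highest in RC4, as their parents were, and may share reads with them.

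Low values and 1 further high value follow. Gm13502 matched Idi1, the isopentenyl diphosphate isomerase of sterol synthesis, in 100% of the window and had 427 RPM in NT, then 372, 110 and 64.1 in AS, RC4 and RC8. Its log2 change was -2.74 in RC8 (-2.82 to -2.66), the lowest among 706 genes without a 3′-most-exon PAS and with 200 reads, while Idi1 itself had 2.79 RPM in NT and 4.23 in AS and no row in the other tables. ENSMUSG00000073674, which matched the aldose reductase Akr1b3 in 92.0%, had 953 RPM in NT, then 1015, 663 and 190 in AS, RC4 and RC8. Gm3531 matched Btf3, a factor of the nascent polypeptide complex, in 98.5% and had 24.8 RPM in NT and 5.96 in RC8, beside 27.9 and 7.18 for Btf3. Rps6-ps4, identical to Rps6 over the window, parted from its parent, with 15.9 RPM in NT and 3.97 in RC4 against 415 and 427 for Rps6. In RC8, Gm7204, matching the peroxidase Prdx1 in 93.5%, had 58.1 RPM in NT and 137 in RC8, and Prdx1 had 2166 and 5133.

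The changes of member and parent were compared over all such pairs. With at least 190 matching bases, 217 of 226 genes in AS (96.0%), 201 of 224 in RC4 (89.7%) and 194 of 218 in RC8 (89.0%) lay within 0.5 of the parent on the log2 scale of the change, and the median distance was 0.11, 0.15 and 0.18. With at least 160 and under 190 matching bases the shares were 92.0%, 89.2% and 83.8%. For all genes the middle of the changes ran from -0.29 to 0.12 between the quartiles for AS, from -0.71 to 0.07 for RC4 and from -0.31 to 0.32 for RC8. This range is itself narrow beside 0.5 in AS, and no share for unrelated pairs was computed. Across the closer pairs Pearson's r and Spearman's rho of the 2 changes were 0.26 and 0.23 for AS, 0.72 and 0.68 for RC4, and 0.71 and 0.74 for RC8. These are correlations across genes of the same 2 libraries that can share reads, several members have the same parent (177 parents for 226 genes in AS), and they carry no test.

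**Figure D5:**
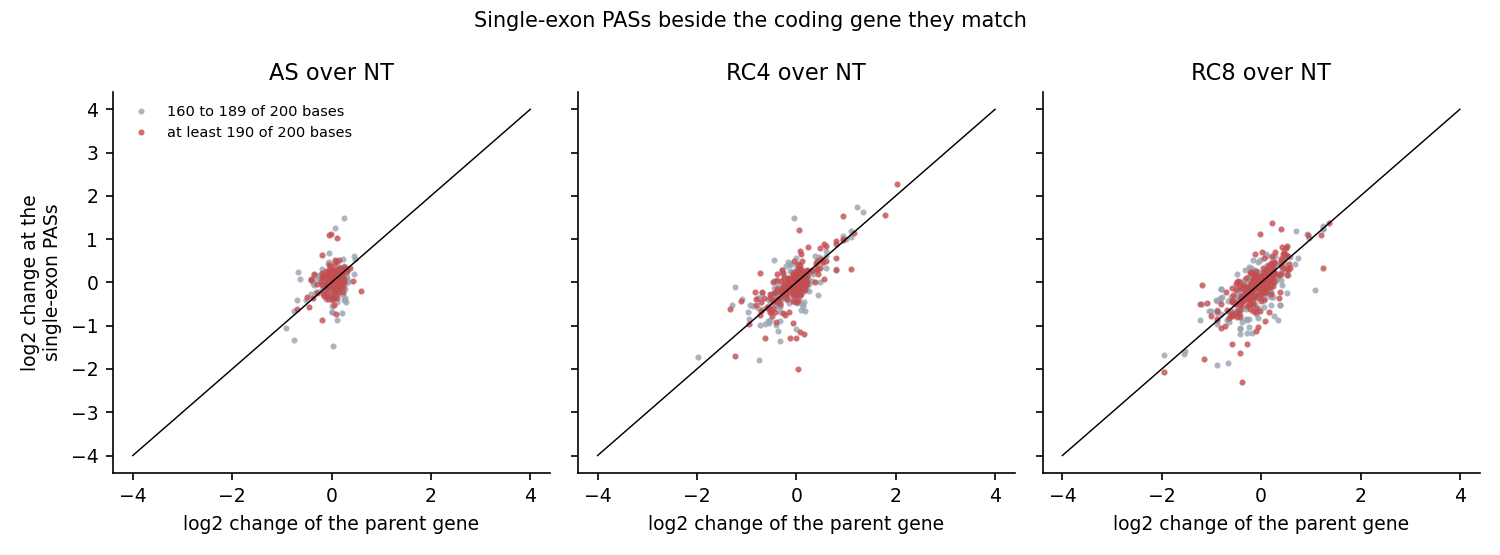
Log2 change of RPM at single-exon PASs of a gene against that of the coding gene it matched best, for AS, RC4 and RC8 over NT. Points are genes, grey for at least 160 and under 190 and red for at least 190 of 200 matching bases, and the line marks equal change. Changes lie within a narrow range in AS and spread along the line in RC4 and RC8.

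Genes with both types were few, 22 over the 3 tables, and included Cebpb, Junb, Jund, Rhob, H2afx, H2afj, Hexim1, Dolk, Mars2 and Utp3. Of their single-exon PASs, 4 of 22 were at least 2-fold lower in AS, 6 of 23 in RC4 and 1 of 22 in RC8. In each comparison 0 were higher. Beside those, 39 of 925 members in other genes were lower in AS, 74 of 909 in RC4 and 68 of 908 in RC8. Over all PASs 6.28%, 17.1% and 7.45% were lower in AS, RC4 and RC8, and 1.05%, 5.93% and 4.87% were higher. The Wilson interval of the lower share held that of all PASs in RC4 (12.5% to 46.5%) and RC8 (0.807% to 21.8%). In AS it lay above (7.31% to 38.5%), but the interval treats PASs as independent. Mars2 and Rbm8a2 each gave 2 of the 22 PASs, and each condition had 1 library. The interval therefore cannot decide whether these genes were lower in AS more often than others. For higher calls the upper limits were 14.9%, 14.3% and 14.9%, so their absence in so few PASs does not set these genes apart. Single-exon and 3′-most-exon PASs of a gene can be set against each other here.

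Cebpb, a leucine zipper factor of stress and adipocyte programmes, had single-exon and 3′-most-exon PASs 114 nt apart. The single-exon PAS had 8.83 RPM in NT and 15.6 in RC4, and the 3′-most-exon PAS had 216 and 37.9. The share of the single-exon PAS was 3.92% of 5075 reads in NT (95% Wilson interval 3.42% to 4.49%) and 29.1% of 1225 in RC4 (26.6% to 31.7%). In the RC8 table it was 3.61% in NT and 24.1% in RC8. The gene had fewer reads in recovery, and by the estimated fractions the loss lay at the 3′-most-exon PAS. Between PASs this close the split of reads rests on the model, whose error the intervals leave out. In H2afx, the histone variant phosphorylated at DNA breaks, the PASs were 864 nt apart and the single-exon one had 103 RPM in NT, 93.1 in AS and 48.7 in RC4. The other had 88.9 RPM in NT, 98.0 in AS and 16.9 in RC4. The single-exon share was 53.6% in NT (52.1% to 55.1%), 48.7% in AS, 74.2% in RC4 (71.9% to 76.3%) and 61.5% in RC8. Both PASs were lowest in RC4, the 3′-most-exon one by more.

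Dolk, the dolichol kinase of protein glycosylation, had 52.5% of its reads at the single-exon PAS in NT, 64.3% in AS, 78.3% in RC4 (75.6% to 80.8%) and 52.5% in RC8. H2afj, an H2A variant, had 57.2% in NT, then 61.6%, 63.2% and 73.9% in AS, RC4 and RC8, with an interval of 72.8% to 75% in RC8. Rhob, a GTPase of early response, went the other way, with 87.5% in NT, then 83.9%, 81.0% and 76.4% in AS, RC4 and RC8, with an interval of 73.7% to 79.0% in RC8. Junb had 35.8% in NT and 34.7% in AS, so that both of its PASs were higher in AS by a like amount, 0.84 and 0.91 on the log2 scale. Jund had 56.4% in NT and 72% in RC4, from 218 and 188 reads. Mars2, the mitochondrial methionyl-tRNA synthetase, had 58.0% in NT, 34.2% in AS (28.8% to 40.1%) and 41.1% in RC4. Hexim1, the inhibitor of P-TEFb, had 5.90% in NT and 5.37% in RC4, with both PASs lower in RC4. Tdg-ps, a copy of the DNA glycosylase gene Tdg, had 19.3 RPM at its single-exon PAS in NT, then 11.7, 18.5 and 13.4 in AS, RC4 and RC8. Tpm3-rs7, identical to the tropomyosin gene Tpm3 over the window, had 12.8 RPM in NT, then 15.2, 20.2 and 17 in AS, RC4 and RC8. ENSMUSG00000078373, which shared its PAS with Ccdc71l, had 6.11 RPM in NT, then 3.17, 12.1 and 8.78 in AS, RC4 and RC8. Utp3, a ribosome assembly factor, stayed between 43.5% and 49.6%.

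Over genes with several PASs, the share of the gene at a single-exon PAS was at least 10 percentage points higher in 29 of 273 members in AS (10.6%) and as much lower in 30 (11.0%). All PASs of such genes had 5.05% higher and 5.14% lower. In RC4 the counts were 29 and 29 of 287 (10.1% each), beside 9.67% and 10.1%. In RC8 they were 40 (14.3%) and 37 (13.3%) of 279, beside 8.93% and 9.17%. A gene with 2 PASs gives 1 count in each direction, so these are not independent. The number of PASs per gene was not matched between members and all PASs, and its part in the differing shares was not tested. In most genes with a single-exon PAS there was no other PAS, 674 of 815 in AS, 646 of 794 in RC4 and 654 of 799 in RC8.

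The largest changes of share in RC8, among genes with at least 200 reads in both libraries, were in Rpl3-ps1 and Rps12-ps10. In Rpl3-ps1 the PASs lay 197 nt apart, and the upstream one took 57.6% in NT, 35.0% in AS, 73.2% in RC4 but 16.7% in RC8, and the gene's total stayed between 1497 and 1842 RPM. The direction in AS and RC8 was thus opposite to that in RC4. Rps12-ps10 had 98.3% at 1 PAS in NT and 62.2% in RC8. Gm14681, a copy of Npm1, had 96.5% in NT and 56.0% in RC4 (50.7% to 61.2%). Gm14122, which matched Ppp1cc and shared its PASs with Zfp442, had 41.8% in NT and 11.1% in RC4 (7.51% to 15.9%) at 1 PAS. Gm15725, inside Lrrc58, had 69.0% in NT and 94.4% in AS at a PAS that matched Actb in 98.0% of the window and was also listed for Lrrc58. Dancr, a long noncoding RNA that hosts Snora26, had 63.9% in NT and 35.4% in AS (32.0% to 38.9%) at the PAS it shares with Snora26. Most of these genes can share reads with a parent mRNA or a host, and the part of that in the shares was not tested.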

How the data were processed

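QuantSeq FWD libraries of NT, AS, RC4 and RC8 cells were analysed, 1 each, and QuantSeq REV libraries were not analysed here. Reads had been trimmed and mapped to mm9 with STAR 2.5.2a, as the submitters' processing notes give it, with several places per read allowed, and the authors ran MAAPER with the sites of PolyA_DB. The authors deposited read counts per gene, in 2 columns per library that were added, and the fraction of a gene's reads at each PAS, without normalization. Columns of the authors' comparisons (P values, RED and RLD scores as log2 ratios) were not used. The tables do not name their conditions in the columns, and the first was taken as NT from the methods and because its reads recur in all 3 tables.

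Reads at a PAS (fraction times gene reads) were scaled to the summed reads on the genes of a table. A change of at least 2-fold was called at PASs with at least 50 reads in 1 of the 2 libraries, and a share by 10 percentage points. Intervals are 95% Wilson for shares, Poisson for sums and exact binomial for ratios, and cover counting error only. They leave out the error of assigning reads to PASs. The call and the interval were tried on simulated Poisson counts. These held no variation between libraries and no error of assignment, so the trial covers neither. Windows of 200 nt were aligned with minimap2 2.31 to the mm9 genome and GENCODE vM1 coding transcripts, and gene classes came from RefSeq (GRCm38.p6), by symbol, synonym or Ensembl ID, then GENCODE vM1. Python 3.11.15, pandas 2.3.3 and scipy 1.17.1 were used.

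Named were, per comparison, the 5 highest and 5 lowest genes without a 3′-most-exon PAS and 3 each with one, at 200 or more reads, the 5 genes with the most reads, the 2 largest changes of share each way, and the listed genes. Genes with model names, where described, were given with a parent or host. Pcbp1, Chst14, Zfp469, Hexim1, Dolk, Utp3, Gm15500, Rpsa-ps10, Tpt1-ps3, Hspd1-ps3, Hspe1-ps3 and ENSMUSG00000083840 were chosen after their values were seen. Members and lists were chosen with earlier results of these data known. The rule also names 7 genes with model names, which are counted only, and 1 small RNA gene that is not reported here.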

Additional observations from a re-analysis of the deposited data

Results flagged for a closer look

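Neat1 and Gm22579 passed 2-fold in opposite directions in 2 comparisons, among members with at least 200 reads. The log2 change at the single-exon PASs of Neat1 was -1.62 in AS and 1.18 in RC4, and that of Gm22579, at the end of Taf1d, was 1.06 in AS and -1.46 in RC8. Each value rests on 1 library per condition and the same NT library, and the difference between comparisons was not tested.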

How the results depend on the processing

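No paired analysis was possible because each condition has 1 library, and for the same reason no library could be left out. RPM at single-exon PASs, 151545, 163120, 162133 and 148973 in NT, AS, RC4 and RC8, were 122852, 131397, 128941 and 122578 with the study's read numbers as total, 150471, 162178, 161236 and 148137 in genes with at least 200 reads in both libraries, 128970, 139645, 137696 and 126783 without PASs listed for several genes, and 148658, 160341, 158582 and 146535 for PASs of all 3 tables. Alternatives chosen after seeing the data gave 39627, 40748, 43485 and 39806 without pseudogenes and 116247, 125555, 121060 and 113042 without PASs within 100 nt of another gene's PAS. AS and RC4 stood above NT under each of these, and RC8 stood below NT except without pseudogenes. Members changed at least 2-fold in AS, RC4 and RC8 were 65 of 947, 114 of 932 and 95 of 930. They were 139, 254 and 250 at 1.5-fold and 19, 41 and 22 at 3-fold. In genes with at least 200 reads in both libraries they were 38 of 793, 71 of 781 and 57 of 788. Without pseudogenes they were 63 of 328 in RC4 and 39 of 340 in RC8, so the count fell and the share rose. Without PASs near another gene's PAS they were 40 of 730 in AS, as 19 higher and 21 lower instead of 22 and 43. Scaling on the median gene, which moves the median of all genes by 0.30 in RC4, turned 34 higher and 80 lower there into 62 and 41. Members whose share changed, 59, 58 and 77, were 114, 133 and 141 at 5 points. The share of members with a hexamer, 50.3%, was 32.7% within 30 nt and 40.7% for AATAAA only, and that of genes with 1 exon, 86.5%, was 81.5% for no spliced transcript. The other alternatives stayed within 1.5 times the count or within the interval. The cause of these differences was not tested.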
